A study of Homo sapiens with 4 samples.

Results

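Outside the gene that encodes EVI1 itself, MECOM, 5 human genes held some of the strongest chromatin immunoprecipitation peaks that the wild-type EVI1 protein and its EVI1+18 splice form had in common. The genes were RPTOR, ERC1, CDKAL1, TYK2 and KMT5B (also called SUV420H1). A peak was counted as a member when its summit, the position of highest fragment coverage, lay inside the hg19 window of one of these genes, with window edges rounded to 1 kb. This gave 9 of the 347 EVI1-WT peaks and 7 of the 388 EVI1+18 peaks, 16 of 735 in all. The genes were selected on fold enrichment and on overlap between the lists: a peak in each ranked high in both. Fold, rank and the presence of a partner therefore describe the choice and are given without a test. Pileup enters fold, so ratios of pileup or fold between the lists are not independent of the choice either.

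EVI1 is a transcription factor with separate groups of zinc fingers that recognise GATA-like and ETS-like DNA sequences. It is known for sustaining haematopoietic stem cells and for driving myeloid leukaemia when its gene is rearranged. Peaks of such a factor can lie far from any gene start, so a peak inside a gene does not show that the gene is a target.

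The study put the vectors pMIGII_Mock (empty), pMIGII_3xHA (tag alone), pMIGII_3xHA_EVI1-WT and pMIGII_3xHA_EVI1+18 into HEK293T cells, an established human embryonic kidney line, by transient transfection 1 day before harvest. Chromatin cut with micrococcal nuclease was precipitated with an antibody to the HA tag (3F10), and each vector gave 1 library. Peak lists of the EVI1-WT library (28191547 tags kept after duplicate removal) and the EVI1+18 library (27908825 tags) were used, both called against 1 input library of mock cells. Peaks of the empty-vector and tag-alone cells were not analysed here, and signal that the antibody gives without EVI1 was therefore not measured. Both proteins came from transfected vectors, in a cell line that is not haematopoietic. With 1 library per form, the intervals given on ratios cover counting error only, and variation between libraries could not be estimated.

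RPTOR, on chromosome 17 (window 78518000 to 78941000), encodes raptor, the scaffold that brings substrates to the mTORC1 kinase complex. The EVI1-WT peak ran from 78903552 to 78904532 (981 bp) with a pileup, the number of fragments over the summit, of 63. The EVI1+18 peak ran from 78903521 to 78904494 (974 bp) with a pileup of 78. RPTOR lies on the plus strand, and both summits were 386 kb from its 5′ edge, at 91.3% of the window, 37.0 kb (EVI1-WT) and 36.7 kb (EVI1+18) before its 3′ edge. The peaks shared 943 bp, and their start and end positions differed by 31 and 38 bp. Although the peaks coincided, their summits were 226 bp apart, with the EVI1-WT summit at 50.4% of the peak's width and the EVI1+18 summit at 77.2%. EVI1-WT alone had a second, low peak of 128 bp at 78904642 to 78904769 with a pileup of 13, which lay 147 bp from the EVI1+18 peak.

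ERC1, on chromosome 12 (1100000 to 1606000, plus strand), encodes ELKS, a scaffold of vesicle docking sites at the cell cortex that also takes part in NF-kB signalling. It carried the longest group of peaks among the 5 genes, 1422 bp from first start to last end in EVI1-WT and 1443 bp in EVI1+18, 131 kb from the 5′ edge. Both lists split this group at the same place. The first strong peak ended at 1231170 in EVI1-WT and 1231169 in EVI1+18, and the next one began at 1231242 in both. Pileups before the split were 43 in EVI1-WT (1230654 to 1231170, 517 bp) and 41 in EVI1+18 (1230498 to 1231169, 672 bp). Pileups after it were 36 in EVI1-WT (1231242 to 1231850, 609 bp) and 46 in EVI1+18 (1231242 to 1231940, 699 bp). Within each list, the higher pileup lay before the split in EVI1-WT and after it in EVI1+18. That difference was not tested, and the intervals of both ratios between the lists, given below, include 1. A weak EVI1-WT peak with a pileup of 13 (1230429 to 1230602) also overlapped the first EVI1+18 peak, so that 1 EVI1+18 peak faced 2 EVI1-WT peaks there.

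CDKAL1, on chromosome 6 (20534000 to 21233000, plus strand), encodes a methylthiotransferase that modifies a lysine transfer RNA, and its locus is known for association with type 2 diabetes. The EVI1-WT peak lay at 20835596 to 20836058 (463 bp, pileup 28) and the EVI1+18 peak at 20835590 to 20835940 (351 bp, pileup 27). Both summits were 302 kb from the 5′ edge, 43.2% of the way through the window, and 11 bp apart. The peaks began within 6 bp of each other, while the EVI1-WT peak reached 118 bp farther at its end. EVI1-WT also had a peak of 78 bp and a pileup of 12 at 20835460 to 20835537, 52 bp from the EVI1+18 peak.

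TYK2, on chromosome 19 (10461000 to 10492000, minus strand), encodes a Janus kinase that signals from interferon and interleukin-12 family receptors. Its peak was the nearest to the 5′ edge of its own gene window among the 5 genes. The summits lay 2.48 kb (EVI1-WT) and 2.49 kb (EVI1+18) inside the 5′ edge of the rounded window. The EVI1-WT peak ran from 10489160 to 10489672 (513 bp, pileup 25) and the EVI1+18 peak from 10489172 to 10489708 (537 bp, pileup 24). This was also the only one of the 5 genes with a single peak in each list, and the summits were 14 bp apart.

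KMT5B, on chromosome 11 (67922000 to 67982000, minus strand), encodes an enzyme that adds methyl groups to a lysine of histone H4, a mark of compacted chromatin. The EVI1-WT peak was at 67965776 to 67966163 (388 bp, pileup 24) and the EVI1+18 peak at 67965753 to 67966137 (385 bp, pileup 20), both with summits 16.1 kb from the 5′ edge. Start and end were shifted by 23 and 26 bp and the summits were 8 bp apart, the closest summits of the one-to-one pairs in the 5 genes. Here the extra weak peak was in EVI1+18, at 67965434 to 67965493 with a pileup of 9, 282 bp from the EVI1-WT peak.

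**Figure D1:**
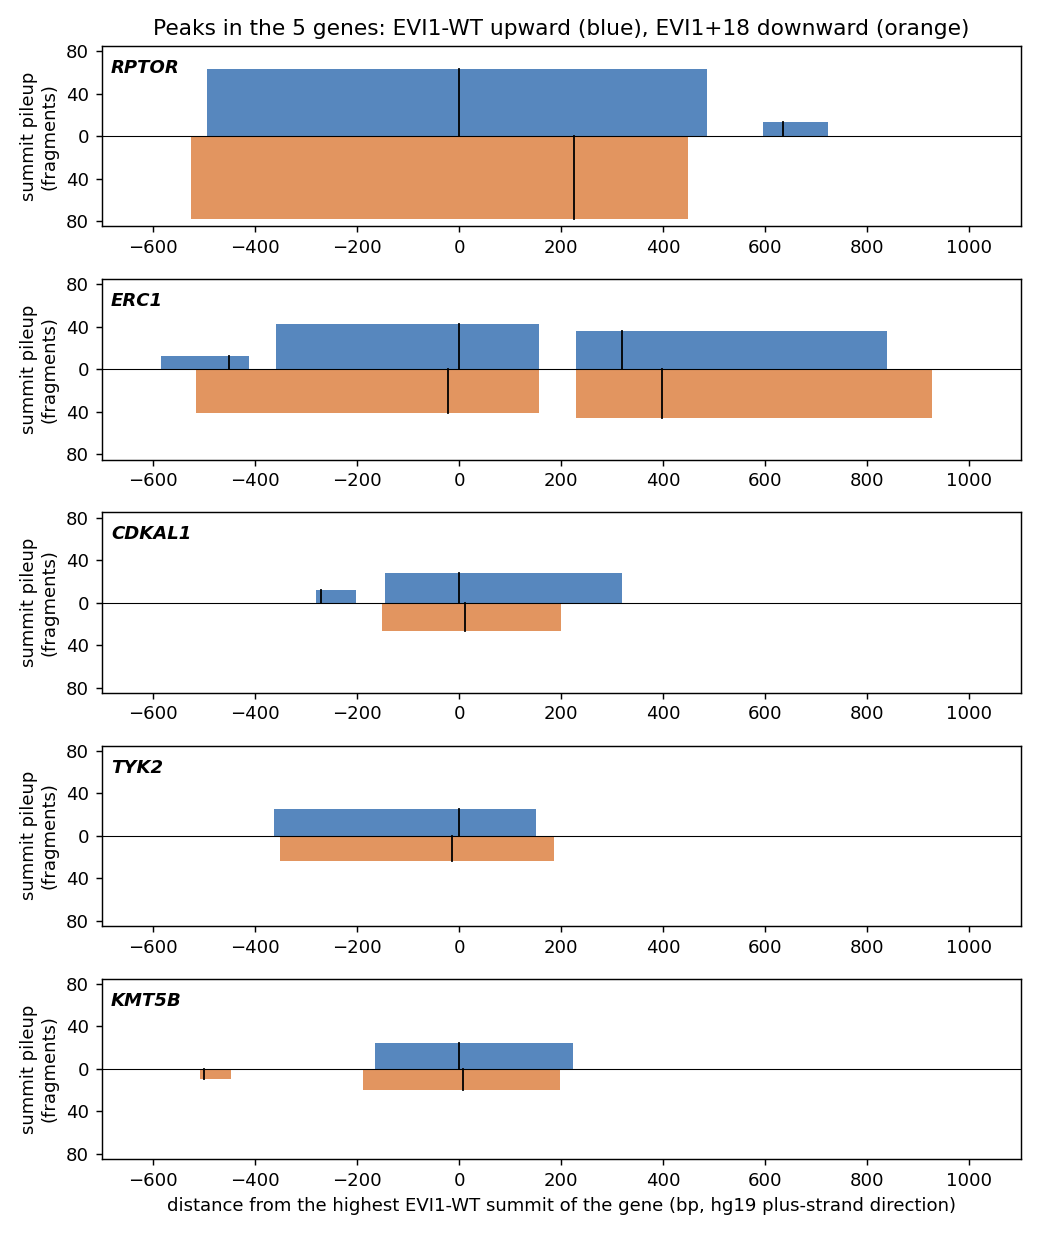
Each block is 1 called peak; its horizontal extent is the peak's start to end, in bp from the highest EVI1-WT summit of that gene, its height is the summit pileup in fragments, and the black line marks the summit (the shape of coverage inside a peak is not given in the lists). EVI1-WT is drawn upward and EVI1+18 downward; the strong blocks face each other in all 5 genes, the RPTOR summits are 226 bp apart, and both lists are split at the same place in ERC1.

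Every gene therefore held 1 compact group of peaks, at most 1443 bp long within windows of 31.0 to 699 kb, and no second site was called elsewhere in any of the 5 windows. Whether these positions are exonic or intronic was not analysed here, because no hg19 annotation was used. In the GRCh38.p14 gene table, RPTOR, ERC1 and CDKAL1 each overlap 6 other gene records and TYK2 and KMT5B overlap none, so a peak in the first 3 genes may also lie in another gene. Within 1 kb of another peak of their own list were 7 of the 9 EVI1-WT member peaks (47.6% of that list) and 4 of the 7 in EVI1+18 (44.8%). The nearest called peaks outside the windows had pileups of 7 to 15 and fold enrichments of 4.46 to 9.93. They lay from 0.273 Mb away (TYK2, both lists) to 14.5 Mb away (ERC1, EVI1-WT).

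Of the 9 EVI1-WT member peaks, 7 overlapped an EVI1+18 peak by at least 1 bp, where 62.2% of the whole EVI1-WT list did. Of the 7 EVI1+18 member peaks, 6 overlapped an EVI1-WT peak, against 55.4% of that list. The 3 peaks without a partner were the weak ones beside RPTOR and CDKAL1 in EVI1-WT and beside KMT5B in EVI1+18, with pileups of 13, 12 and 9. The lowest pileup called anywhere was 8 in EVI1-WT and 7 in EVI1+18. Since the genes were picked for shared peaks, these counts say nothing about sharing in general.

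The height of the strong shared peaks could not be told apart between EVI1-WT and EVI1+18 in any of the 5 genes. Dividing each EVI1-WT pileup by that of EVI1+18, after scaling to kept tags, RPTOR gave 0.80 (95% interval 0.56 to 1.13) and the one-to-one ERC1 pair after the split gave 0.77 (0.49 to 1.22). CDKAL1 gave 1.03 (0.58 to 1.81), TYK2 1.03 (0.57 to 1.89) and KMT5B 1.19 (0.63 to 2.27). The strong ERC1 pair before the split gave 1.04 (0.66 to 1.63). The weak ERC1 peak was left out here, because the summit of the EVI1+18 peak it overlaps lies 430 bp away, under the strong EVI1-WT peak. The exact conditional binomial intervals of these 6 ratios all include 1. So do the intervals of 167 of all 173 one-to-one pairs, so this is not particular to the 5 genes. The intervals are wide: at KMT5B, with 24 and 20 fragments, a ratio as low as 0.63 or as high as 2.27 falls inside. None of the 5 one-to-one pairs (0 of 5) differed by more than 1.5-fold, against 13.9% of all 173 one-to-one pairs. Pileup enters fold, which selected the genes, so this count is not independent of the choice. The 5 pairs also had higher median pileups, 28 (EVI1-WT) and 27 (EVI1+18), against 14 and 16 over all pairs. Counting error is relatively smaller at higher counts. With only 5 pairs, no difference from 13.9% can be read from the count. The scaled pileup was larger in EVI1-WT at 3 of the 5 pairs, against 39.3% of all pairs. All pairs include those of MECOM and of dense regions (defined below). Without these, the mitochondrial sequence and the 5 genes, it was larger in EVI1-WT at 31 of 113 pairs, and the median ratio was 0.89.

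**Figure D2:**
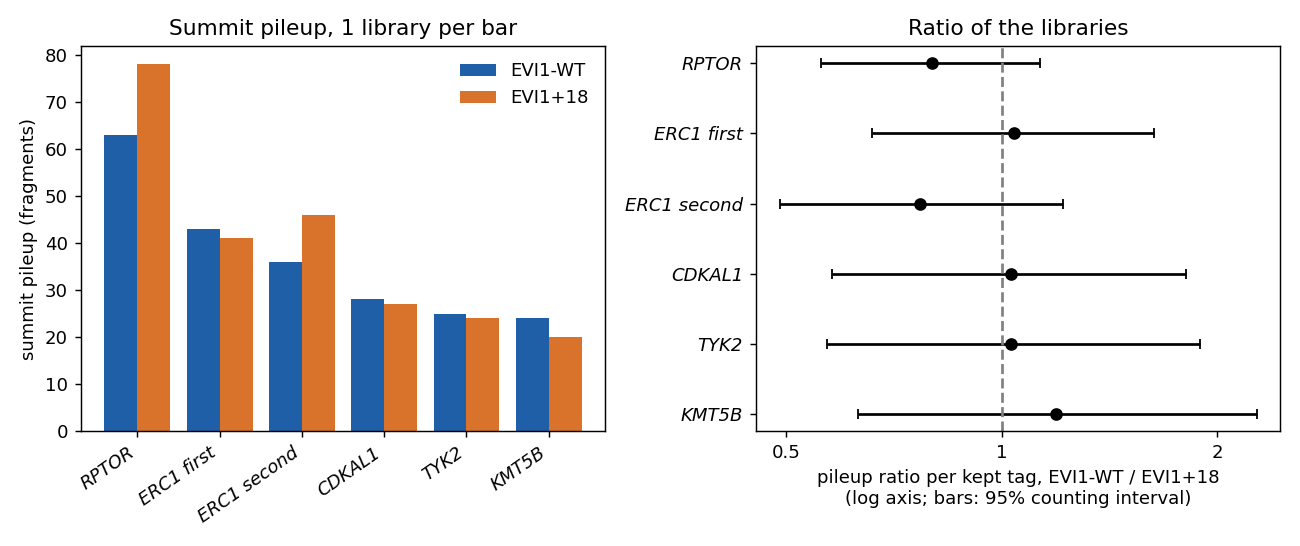
Left, summit pileup in fragments for the strong overlapping peaks of each gene, 1 library per bar (blue EVI1-WT, orange EVI1+18; "first" and "second" are the ERC1 peaks before and after the split). Right, the EVI1-WT pileup divided by the EVI1+18 pileup, scaled to kept tags, on a log axis with its 95% counting interval; the points lie between 0.77 and 1.19 and every interval includes 1.

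Fold enrichment sets the pileup against the background that the caller assigned to the peak, and at RPTOR it differed more than the pileup did. It was 21.8 in EVI1-WT and 40.4 in EVI1+18. The former is 0.54 of the latter, whereas the pileups differed by a ratio of 0.80. The background behind each fold could be recovered from the deposited values, and it returned every deposited −log10 p-value of both lists to within 3.5e-05. At the RPTOR summits this background came to 1.934 fragments for EVI1-WT and 0.957 for EVI1+18. These values equal, within 0.001, the weight of 2 scaled control fragments and of 1, so the RPTOR background differed by a single control fragment between summits 226 bp apart. With 1 added to each pileup and background, as the caller does, the fold ratio of 0.54 is the pileup ratio of 0.81 multiplied by 0.67, the EVI1+18 background divided by that of EVI1-WT. On one common background the fold ratio would be 0.81.

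At the other 4 one-to-one pairs the backgrounds were closer, and the fold ratios lay within 0.06 of the ratios of pileup plus 1. TYK2 and KMT5B sat on the lowest background of either list, 0.611 in EVI1-WT and 0.625 in EVI1+18. That level was shared by 68 of the 347 EVI1-WT peaks and 76 of the 388 EVI1+18 peaks. It need not reflect the input around these 2 genes. Their fold enrichments were 16.1 and 15.4 at TYK2 and 15.5 and 12.9 at KMT5B (EVI1-WT first). CDKAL1 had backgrounds of 0.849 and 0.869 and folds of 15.7 and 15.0. ERC1 after the split had backgrounds of 0.792 and 0.927 and folds of 20.6 and 24.4. In 1 of the 5 pairs, RPTOR, fold enrichment differed by more than 1.5-fold, and 17.9% of the 173 pairs did so.

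**Figure D3:**
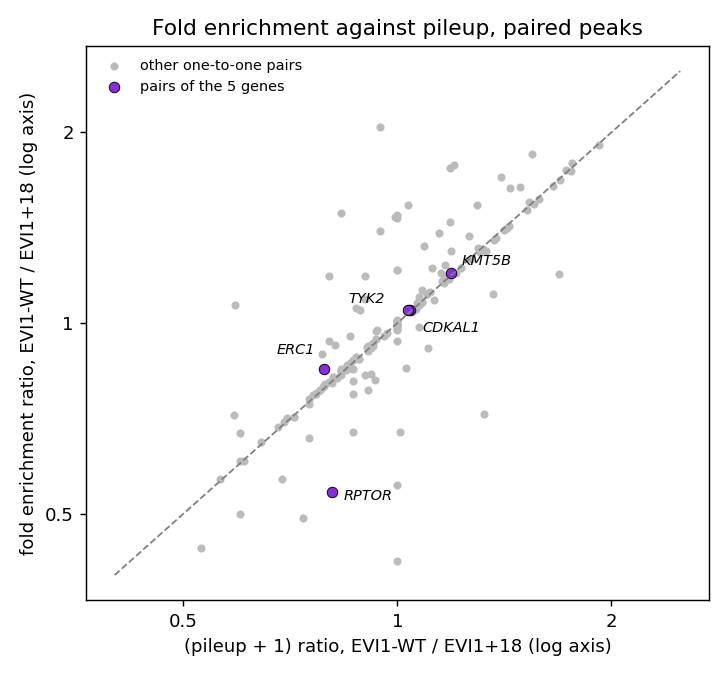
Each point is 1 of the 173 one-to-one pairs; the horizontal axis is the EVI1-WT to EVI1+18 ratio of pileup plus 1 and the vertical axis the ratio of fold enrichment, both on log axes, and the dashed line marks equal ratios. CDKAL1, TYK2, KMT5B and ERC1 lie on or near the line, and RPTOR lies below it, at 0.81 and 0.54.

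By fold enrichment the strong peaks of the 5 genes came near the top of both lists. In EVI1-WT the ranks within the list of 347 were 14 and 16 (ERC1), 15 (RPTOR), 20 (TYK2), 21 (CDKAL1) and 22 (KMT5B). In EVI1+18 the ranks among 388 were 8 (RPTOR), 15 and 16 (ERC1), 20 (TYK2), 21 (CDKAL1) and 28 (KMT5B). Ranked by pileup they stood lower, at 29 (RPTOR) to 80 (KMT5B) in EVI1-WT and 20 (RPTOR) to 76 (KMT5B) in EVI1+18. The weak peaks ranked 124 (RPTOR), 173 (ERC1) and 179 (CDKAL1) by fold in EVI1-WT and 341 (KMT5B) in EVI1+18. Keeping 1 tag per position and strand sets a ceiling on pileup, 116 fragments in EVI1-WT and 120 in EVI1+18. RPTOR reached 54.3% and 65.0% of it, and the strong peaks of the other 4 genes 16.7% to 38.3%. How far dropped duplicates changed the RPTOR pileups and their ratio was not tested.

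The strong peaks were broad compared with their lists as a whole. The 6 with a pileup of at least 20 in EVI1-WT were 388 to 981 bp wide, and the 6 in EVI1+18 were 351 to 974 bp wide. The median widths of the whole lists were 97 and 120 bp. Over 300 bp, a limit chosen after the widths were seen, were 6 of 9 member peaks in EVI1-WT (9.51% of that list) and 6 of 7 in EVI1+18 (13.4%). Outside the MECOM region, the mitochondrial sequence and the 5 genes, 79 EVI1-WT peaks had a pileup of at least 20, with a median width of 92 bp, and 14 of them exceeded 300 bp. The corresponding 62 EVI1+18 peaks had a median width of 190.5 bp, and 18 exceeded 300 bp. Breadth was not particular to the 5 genes. Among the 25 highest peaks by fold enrichment outside MECOM, the mitochondrial sequence and dense regions (at least 4 peaks of 1 list less than 20 kb apart), 19 lay in other places. Of these 19, 4 in EVI1-WT and 11 in EVI1+18 exceeded 300 bp. In each list 2 of them were wider than every peak of the 5 genes. On chromosome 17 these were 1131 bp (7955706 to 7956836, EVI1-WT) and 1500 bp (7955465 to 7956964, EVI1+18), and on chromosome 5 they were 1030 bp (171116659 to 171117688) and 1252 bp (171116638 to 171117889). Width may depend on the signal that selected the genes, so no test was made.

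**Figure D4:**
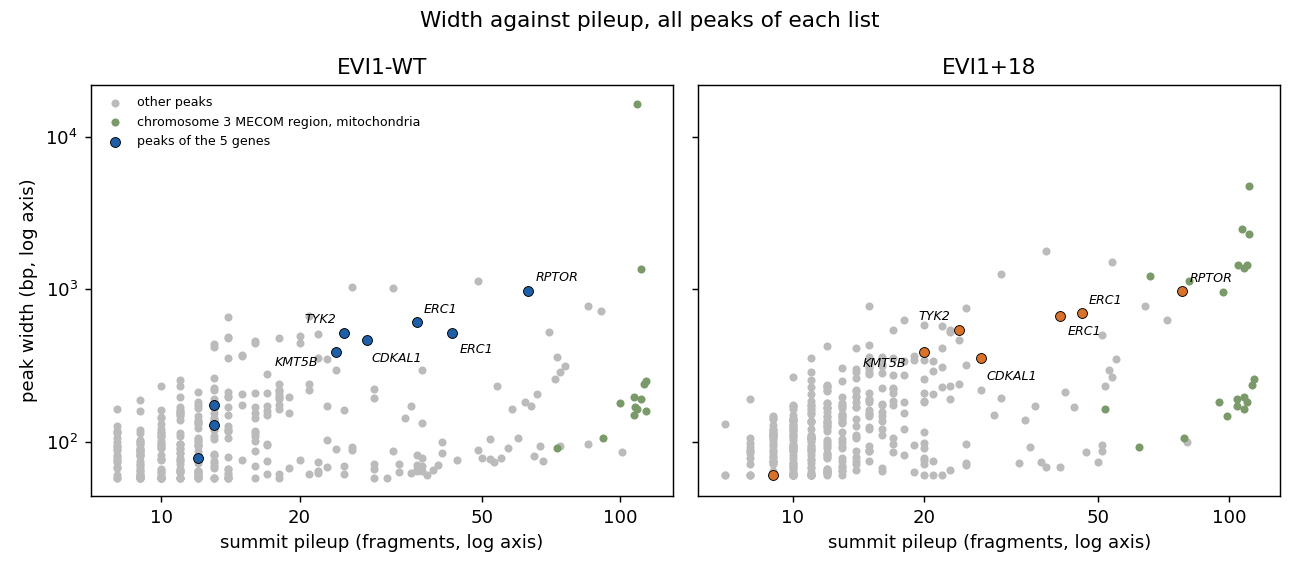
Each point is 1 peak of the EVI1-WT list (left) or the EVI1+18 list (right), by summit pileup in fragments and width in bp, both on log axes; grey points are other peaks, green points the chromosome 3 MECOM region and the mitochondrial sequence, and coloured points the peaks of the 5 genes. The labelled points, the strong peaks of the 5 genes, lie at 351 to 981 bp, while 47 of the 79 grey points with a pileup of at least 20 in EVI1-WT, and 23 of 62 in EVI1+18, lie under 110 bp.

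The positions of the 5 one-to-one pairs matched about as closely as elsewhere. Their summits were a median of 14 bp apart (8 to 226), against 23 bp over all 173 pairs (0 to 598). The summits lay within 100 bp of each other in 4 of 5, against 87.9% of all pairs. The larger of the start and end shifts had a median of 38 bp (26 at KMT5B to 118 at CDKAL1), against 41 bp over all pairs. Broad peaks can hold larger shifts, so these values do not rank the pairs.

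Comparison pairs were taken only from one-to-one pairs outside the 5 genes, MECOM, the mitochondrial sequence and dense regions. The 3 closest in rank to the strong peaks, by the mean percentile of fold enrichment in the 2 lists, were all on chromosome 9. The broad overlapping peaks on chromosomes 17 and 5 named above were not one-to-one and could not be chosen. By fold they ranked 12 in both lists (chromosome 17), and 25 in EVI1-WT and 18 in EVI1+18 (chromosome 5). The 3 pairs therefore do not show the widths of all shared peaks near in rank. At 25285877 to 25286068 (EVI1-WT) the pileups were 29 and 30 and the widths 192 bp in both lists. At 116558249 to 116558604 the pileups were 22 and 25 and the widths 356 and 758 bp. At 139422898 to 139423102 they were 18 and 27, with widths of 205 and 219 bp. These pairs had heights like CDKAL1, TYK2 and KMT5B, and their pileup ratios of 0.96, 0.87 and 0.66 also had intervals that included 1. In EVI1-WT, the widths of all 3 were below those of the strong peaks in the 5 genes (388 bp or more). This did not hold in EVI1+18, where the 758 bp peak was wider than every strong peak of the 5 genes except RPTOR (974 bp).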

How the data were processed

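Per the file headers, MACS 2.0.10.20120913 called each list on its own library, with a q-value limit of 0.05 and 1 mock input for both (29153787 tags kept). Duplicates beyond 1 tag per position were dropped, and 50 bp tags were lengthened to 58 bp (EVI1-WT) or 60 bp (EVI1+18), also per the file headers. Positions are hg19, as the submitters' processing notes name it. Per the file headers, the path of the input reads names BWA; alignment settings are not given in the sources.

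The deposited pileup is a signal in fragments, and the deposited fold enrichment is a ratio over the caller's background with a pseudocount of 1. Each deposited p-value or q-value is on the −log10 scale. All are the authors' values for each peak. Peaks that overlapped by at least 1 bp were called partners, and one-to-one pairs entered the ratios. Pileup ratios were divided by kept tags and carry exact conditional binomial 95% intervals, which cover counting error and treat fragments as independent. The caller's background was computed as (pileup + 1) / fold − 1 and checked by recomputing each p-value from a Poisson tail. Pairing, intervals and background recovery were tested on simulated data. The simulations used the same background formula and independent counts, so they checked the calculations and not those assumptions.

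The 5 genes and the rules were chosen with earlier results of these data known. The peaks named are all peaks of the 5 genes, the nearest peaks outside their windows, and the 3 one-to-one pairs nearest in rank outside MECOM, the mitochondrial sequence and regions with at least 4 peaks of 1 list less than 20 kb apart. Strands came from the RefSeq promoter table (GRCh38.p14), which listed all 5 genes. Exon positions, peak sequences and peaks in related pathway genes need an hg19 genome or annotation and were not analysed here. Calculations used SciPy 1.17.1, numpy 2.4.6 and pandas 2.3.3 under Python 3.11.15, and plots matplotlib 3.10.9. Alternatives covered the overlap rule, thresholds, scaling, ranking measure and pairs used.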

Additional observations from a re-analysis of the deposited data

How the results depend on the processing

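Among 34 alternatives run on the partner counts, ratio, ranks and summit distance, 28 were counted as unchanged. These 28 still include combined partner counts from 10 to 16. They also include a median summit distance of 21 bp in place of 14 when all overlapping pairs were used. The other 6 were counted as moved, all of them rank percentiles, and none reversed. The median percentile by fold enrichment was 93.9 in EVI1-WT and 94.8 in EVI1+18. It became 86.5 and 91.2 when ranked by q, 77.2 and 86.6 when ranked by pileup, and 97.3 and 97.8 without the chromosome 3 MECOM region and the mitochondrial sequence. The number of member peaks with a partner, 13 of 16, became 16 with extension by 500 bp, 12 with a reciprocal overlap of 50%, and 10 when summits had to lie within 100 bp, which removed both peaks of the RPTOR pair and the weak ERC1 peak of EVI1-WT. The median pileup ratio, 1.03, ranged from 1.02 to 1.06. The RPTOR fold ratio of 0.54 became 0.81 on a common background, an alternative chosen after the data were seen, as were the use of all overlapping pairs and of partnered peaks only. No paired analysis was possible because there was only 1 library of each form, which also meant that no library could be left out. No called peak had a pileup below 8 (EVI1-WT) or 7 (EVI1+18), and what the caller could detect below that was not tested.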

Other observations

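Many of the recovered backgrounds took one of 3 values. In EVI1-WT, 68 of the 347 peaks sat at the lowest background of the list, 88 at the weight of 1 control fragment and 26 at that of 2. In EVI1+18 the numbers were 76, 94 and 34 of 388. Among the member peaks, 5 of 9 in EVI1-WT and 5 of 7 in EVI1+18 were at one of these levels. Over the 173 one-to-one pairs, the fold ratio departed from the unscaled ratio of pileup plus 1 by more than 1.2 times at 35. RPTOR was the only one of the 5 genes among them.

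Outside the MECOM region and the mitochondrial sequence, the ERC1 group ranked 3 of 220 regions in EVI1-WT and 5 of 246 in EVI1+18 by covered length, and the RPTOR group ranked 5 and 8. The CDKAL1 group ranked 16 in EVI1-WT and 48 in EVI1+18, where peaks covered 541 and 351 bp. TYK2 ranked 17 in EVI1-WT and 24 in EVI1+18, and KMT5B ranked 32 in both lists.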
